A study of Mus musculus with 6 samples.

Results

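The genes described here are 45 genes of mitosis and the spindle checkpoint, taken by their symbols in GENCODE release M21 from the 55335 identifiers of the count tables. They comprise mitotic kinases, cyclins, the Cdc25 phosphatases that act on Cdk1, checkpoint and anaphase-promoting complex genes, and kinetochore proteins. The others are the chromosomal passenger complex, kinesins and other spindle proteins, condensin with topoisomerase IIα, and the proliferation genes Foxm1 and Mki67. RNA was sequenced from scrambled control cells and IFNγR1KO cells, 3 cultures each. Both are B16-BL6 cells, a mouse melanoma line, that had been given a lentiviral CRISPR-Cas9 vector, selected with puromycin and grown out from about 1 cell per well. The scrambled control cells carried a guide against GFP, and the IFNγR1KO cells carried guides against the opening exon of Ifngr1, which encodes the ligand-binding chain of the interferon-γ receptor. No interferon or drug is named for the sequenced cultures, which were seeded in triplicate overnight. The labels call the controls WT in their genotype field, and they do not say which guide or clone the 3 IFNγR1KO cultures came from, so a difference between the groups and a difference between clones cannot be told apart. The p-values measure the spread between these cultures alone.

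Cells enter mitosis when cyclin B binds Cdk1, Wee1 and Pkmyt1 no longer hold the kinase inactive, and Cdc25 phosphatases remove the inhibitory phosphates. Plk1 and the Aurora kinases then drive spindle assembly, while Bub1, Bub1b, Bub3, Mad2l1 and Ttk delay the anaphase-promoting complex and its activator Cdc20 until kinetochores are attached to microtubules. Many of these transcripts are made in G2 and mitosis and are scarce in G1, under the MuvB complexes with B-Myb and FoxM1 and the DREAM complex, so their level in a culture depends on how many of its cells are dividing. In bulk RNA, fewer cells of a cell cycle phase and less RNA per cell cannot be told apart.

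The scrambled control libraries held 9402640 to 10579788 counts on genes and the IFNγR1KO libraries held 6698956 to 7409479, so every IFNγR1KO library was shallower than every scrambled control library. Levels are therefore given as CPM, counts scaled by library total and the TMM factor of each library, and raw counts are listed for scrambled control replicates 1, 2 and 3 and then for IFNγR1KO replicates 10, 11 and 12. A single count was worth 0.0966 to 0.109 CPM in scrambled control and 0.135 to 0.142 CPM in IFNγR1KO libraries. Ifngr1 itself had 154, 144 and 172 counts in scrambled control and 80, 85 and 82 in IFNγR1KO libraries (log2 fold change -0.47, adjusted p = 0.0729). The 10 melanocyte genes listed were all expressed above the filter on low counts, and their summed level was 38499 to 41332 CPM in scrambled control and 33366 to 37708 CPM in IFNγR1KO libraries. At an adjusted p under 0.05, 0 of the 10 were called. Every IFNγR1KO library lay below every scrambled control library for 4 of them and above for 1, against 16.6% and 16% of all tested genes. Of the leukocyte markers, Cd3e and Itgam were at 0 in every library and Ptprc had 1 count in 1 library, while Csf1r had mean levels of 7.86 and 7.46 CPM in scrambled control and IFNγR1KO cells. Of 6 fibroblast genes 3 were tested and 2 rose, the type I collagen genes Col1a1 (log2 fold change 1.96) and Col1a2 (1.07). The other, the receptor gene Pdgfra, had 38, 32 and 36 counts in scrambled control and 17, 13 and 15 in IFNγR1KO libraries (log2 fold change -0.77, adjusted p = 0.0866). The summed level of this list was 57.0 to 75.4 CPM in scrambled control and 129 to 133 CPM in IFNγR1KO libraries, with Lum at 0 in every library and Dcn at 1 count in 1 library. The part of these values in the results below was not tested.

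Libraries of the same group differed in a way that followed transcript length, taken as that of the longest protein-coding GENCODE transcript of each gene. In scrambled control replicate 3 the deviation from the group mean correlated with log2 transcript length at r = 0.555 over the 45 genes and 0.560 over 11097 tested genes, and in IFNγR1KO replicate 12 at 0.455 over both. In scrambled control replicate 2 it was -0.686 and -0.531, and in IFNγR1KO replicate 10 it was -0.508 and -0.341. These are descriptions across genes that share libraries. Within their groups, Mki67, Cenpe, Cenpf and Top2a, with transcripts of 5221 to 11130 bases, were highest in scrambled control replicate 3 and IFNγR1KO replicate 12, and the shorter Cenpa (1466 bases) and Nuf2 (2405 bases) were lowest. Mad2l1, whose longest transcript has 7557 bases, was lowest there as well, against this pattern. Whether these cells make that transcript or a shorter one was not tested. The log2 fold change itself had r = -0.0504 with length over the 45 genes. Without scrambled control replicate 3 and IFNγR1KO replicate 12, a comparison chosen after the data were seen, 37 of the 45 fell and 0 rose by edgeR at an adjusted p under 0.05, where 11.8% of all tested genes were called lower.

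All 45 genes passed the filter on low counts, with 72 to 4325 counts in a library, and all 45 had a lower estimate in IFNγR1KO than in scrambled control cells, as did 50.2% of all tested genes. By the quasi-likelihood test of edgeR, with p-values adjusted by Benjamini and Hochberg's method over 13642 genes, 31 of the 45 fell and 0 rose at an adjusted p under 0.05, where 7.62% of all tested genes were called lower and 7.73% higher. At an unadjusted p under 0.05 there were 41 genes, all of them lower, against 14.8% of all tested genes lower at this p, and DESeq2's Wald test called 34 lower and 0 higher, against 7.17% of the genes it gave an adjusted p called lower. With the further requirement of an absolute log2 fold change above 1, the threshold of a DEG, 6 genes remained, namely Ttk, Plk1, Kif23, Wee1, Cdk1 and Kif2c, against a background of 1.96% of all tested genes for decreases and 3.25% for increases. The median log2 fold change of the 45 was -0.65, that of all tested genes was -0.00147, and the members ranged from -1.34 in Ttk to -0.07 in Ndc80. For 39 of the 45 genes every IFNγR1KO library lay below every scrambled control library, which held for 16.6% of all tested genes, and for 0 every IFNγR1KO library lay above, against 16%. The groups overlapped for the other 6, Pkmyt1, Pttg1, Cenpe, Cenpf, Ndc80 and Mki67. Summed over the 45 genes, the level was 6141, 6309 and 6504 CPM in scrambled control libraries and 3910, 3981 and 4119 CPM in IFNγR1KO libraries. The groups were thus far apart, and the IFNγR1KO mean was 0.634 of the scrambled control mean. With 3 libraries against 3, an exact permutation test of a single gene allows no p below 0.1. Levels per kilobase were taken over all annotated exons of a gene, merged over its transcripts. On this measure Ccnb2 was highest in scrambled control at 96.2 CPM per kb. The median gene had 23.2 CPM per kb, and Cenpf had the lowest at 3.72 CPM per kb. This order depends on the length used, since the merged exons of Cenpa were 5860 bases and its longest protein-coding transcript 1466 bases.

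**Figure D1:**
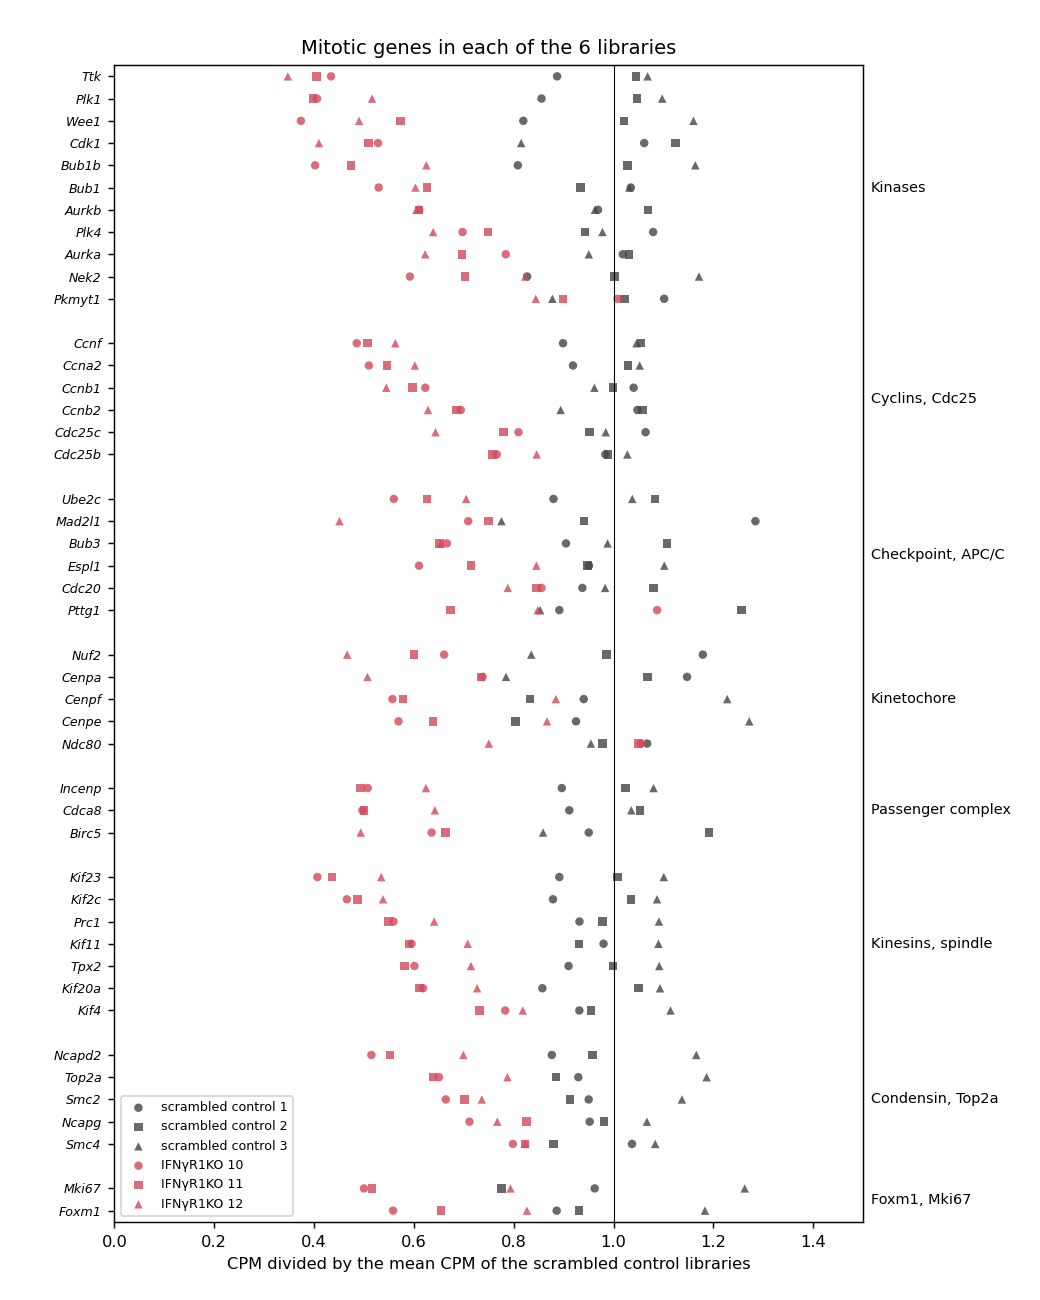
Level of each of the 45 genes in each library, as CPM divided by the mean CPM of the scrambled control libraries (x axis), with 1 gene per row grouped by role (y axis) and 1 symbol per library. The 3 IFNγR1KO points lie left of the 3 scrambled control points for 39 of the 45 genes, which held for 16.6% of all tested genes. The rows of Ndc80, Pkmyt1 and Pttg1 show the least separation.

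**Figure D2:**
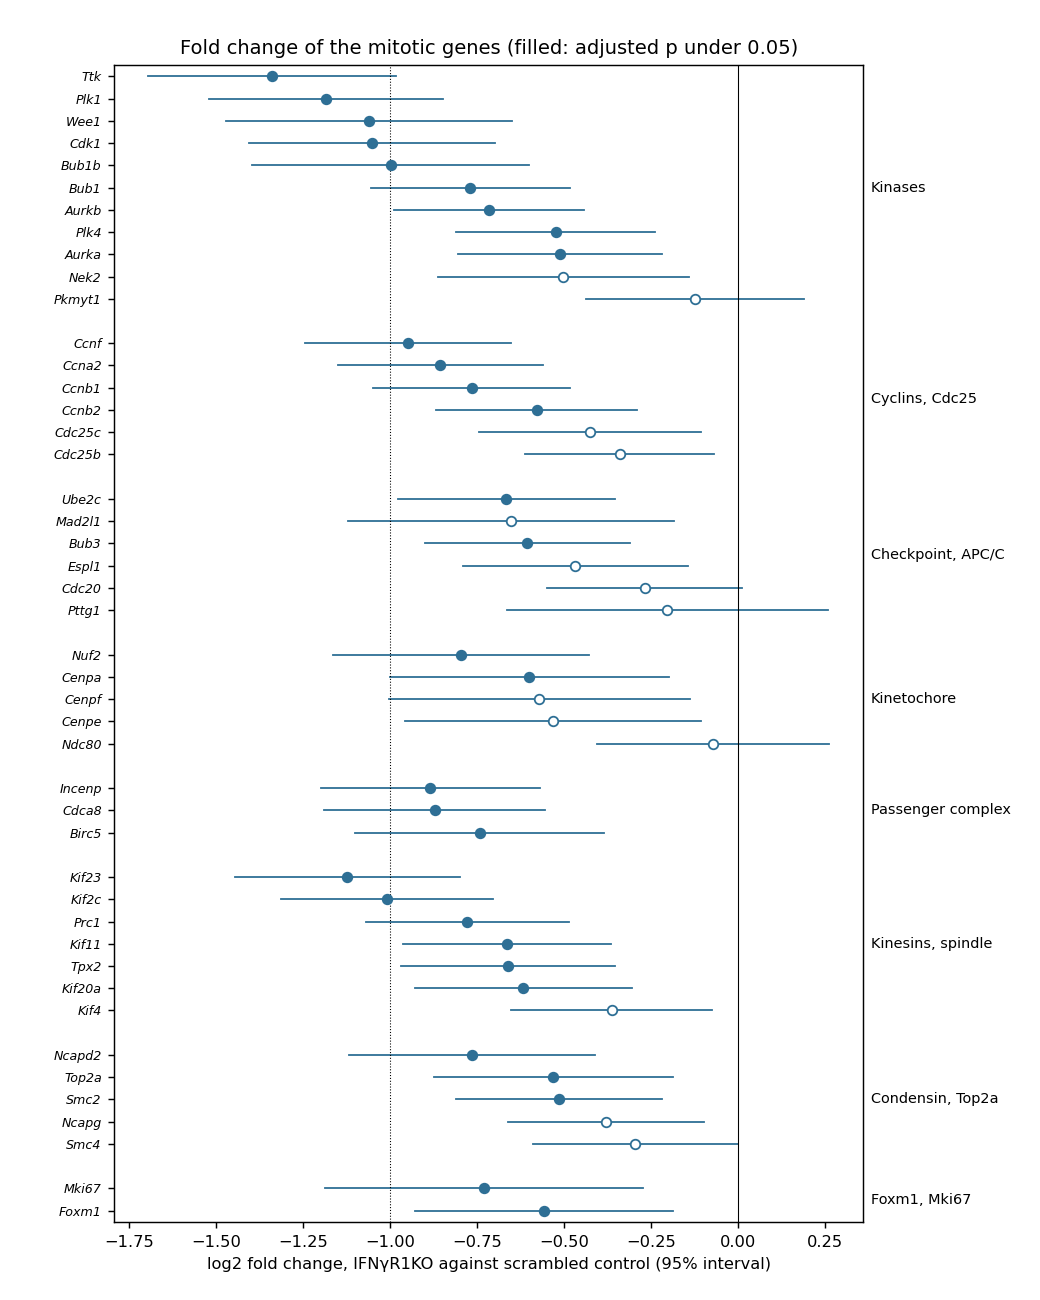
Log2 fold change, IFNγR1KO against scrambled control (x axis), of each gene with its 95% confidence interval, grouped by role (y axis). All 45 estimates lie left of 0, from -1.34 to -0.07, as did 50.2% of those of all tested genes. The 31 filled points have an adjusted p under 0.05, where 7.62% of all tested genes were called lower. The dotted line marks a log2 fold change of -1.

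The 35 members with an entry in the RefSeq promoter table (assembly GRCm38.p6, 250 bases before to 50 after the start) were searched for letters that recur in genes of this class. The CHR element, TTTGAA or its variant TTTAAA, is known as the site through which MuvB complexes act on G2 and mitotic genes, and CCAAT is bound by NF-Y. Both strands were searched, each motif was counted on its own and hits could overlap. TTTGAA stood in the window of 25 of the 35 members (71.4%), against 1128 of the 9470 tested genes with a promoter (11.9%) and 18.1% of all 27025 promoters. With its leading base no more than 60 bases before the start, or after it, it was found in 22 members (62.9%) and in 3.34% of tested genes. CCAAT was in 28 members (80%) and 39.3% of tested genes, and 18 members (51.4%) held 2 or more, against 15.5%. Both TTTGAA and CCAAT were present in 23 members (65.7%) and in 5.21% of tested genes, while TTTAAA was in 10 (28.6%) against 9.03%. Among members that fell in IFNγR1KO cells, 19 of 24 held TTTGAA, and among those not called, 6 of 11 did. Near the start it was 16 of 24 and 6 of 11. For CCAAT the counts were 20 of 24 and 8 of 11, and for TTTAAA 7 of 24 and 3 of 11. Whether a motif goes with the fall was not tested. These shares are a description, and a match of letters is not a binding site. The start meant here is the RefSeq start. The end of the window was found in the opening part of a GENCODE transcript of the gene for 27 of the 35 members, so for the rest the start may differ. Incenp, Wee1, Aurkb, Ccna2, Smc4, Cdc25c, Kif20a, Tpx2, Pkmyt1 and Foxm1 had no entry in the table.

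The bases around TTTGAA are printed for 7 of the called members with the motif near the start. They are written 5′ to 3′ on the strand that reads TTTGAA. The motif, for which the sites were chosen, is in capitals. The GRCm38 positions are chr9:83834686-83834711 on the minus strand for Ttk, chr7:122159455-122159480 on the plus strand for Plk1, chr9:61946782-61946807 on the minus strand for Kif23, chr17:24251408-24251433 on the minus strand for Ccnf, chr10:69352912-69352937 on the minus strand for Cdk1, chr7:80294436-80294461 on the plus strand for Prc1 and chr2:118598241-118598260 on the plus strand for Bub1b.
Ttk: cggaaacacgTTTGAAatttccccgc
Plk1: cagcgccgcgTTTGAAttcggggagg
Kif23: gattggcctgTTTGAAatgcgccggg
Ccnf: tcccggcgcgTTTGAAaacggggcgg
Cdk1: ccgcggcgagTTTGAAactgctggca
Prc1: tctggctcggTTTGAAttccgcgggg
Bub1b: agacgttaaaTTTGAAactt

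The 120 bases that precede the RefSeq start are printed for the 4 called members with a promoter entry and the smallest adjusted p, on the strand of the gene, with each of the motifs above in capitals, in its reverse complement where it lies on the other strand. They are chr9:83834569-83834688 (plus strand) for Ttk, chr7:122159315-122159434 (plus strand) for Plk1, chr9:61946800-61946919 (minus strand) for Kif23 and chr4:117178773-117178892 (minus strand) for Kif2c. The RefSeq start used for Kif2c lies 3867 bases inside the GENCODE gene, so its window does not begin at the start of that gene.
Ttk: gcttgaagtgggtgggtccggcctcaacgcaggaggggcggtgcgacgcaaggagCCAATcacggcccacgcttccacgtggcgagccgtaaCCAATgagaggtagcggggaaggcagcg
Plk1: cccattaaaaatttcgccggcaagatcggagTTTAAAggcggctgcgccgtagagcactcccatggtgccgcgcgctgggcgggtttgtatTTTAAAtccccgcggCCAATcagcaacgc
Kif23: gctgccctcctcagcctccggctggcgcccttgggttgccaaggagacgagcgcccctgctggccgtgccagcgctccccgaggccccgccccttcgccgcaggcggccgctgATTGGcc
Kif2c: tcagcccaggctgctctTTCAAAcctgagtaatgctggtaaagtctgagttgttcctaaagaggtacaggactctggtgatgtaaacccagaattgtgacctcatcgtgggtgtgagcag

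**Figure D3:**
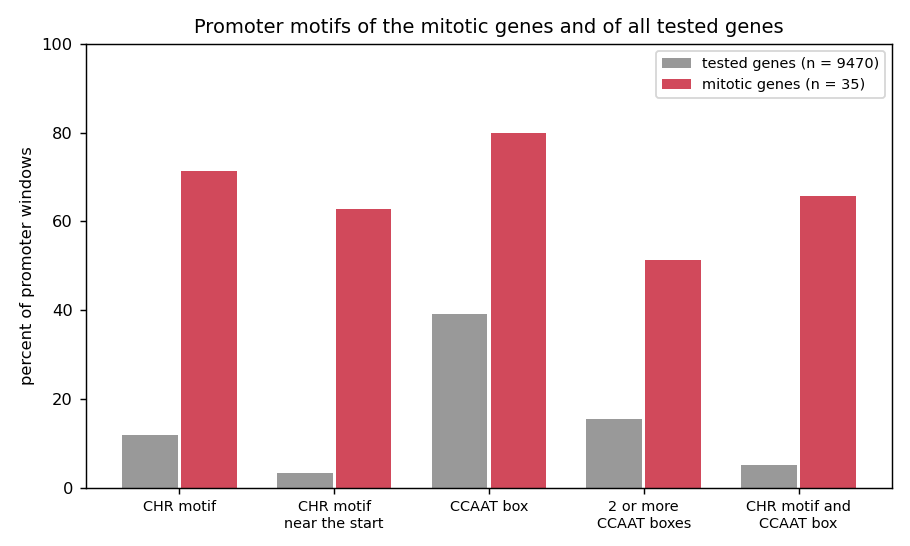
Percent of promoter windows (y axis) that hold the CHR motif TTTGAA, the same motif near the start, a CCAAT box, 2 or more CCAAT boxes, or both kinds of motif, for 35 mitotic genes and 9470 tested genes (bars). The bars of the mitotic genes are the taller in all 5 categories (for example 65.7% against 5.21% for both motifs together and 71.4% against 11.9% for TTTGAA).

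Of the 11 kinase genes, 9 fell in IFNγR1KO cells, against 7.62% of all tested genes called lower. For 4 of them the decrease was more than 1 on the log2 scale, against 1.96% of all tested genes. The median log2 fold change of the 11 kinase genes was -0.77. Their summed level in IFNγR1KO cells was 0.572 of that in scrambled control. Ttk (ENSMUSG00000038379.15, chr9:83834689-83872389), the Mps1 kinase that starts the spindle checkpoint at unattached kinetochores, had 238, 306 and 322 counts in scrambled control and 89, 87 and 72 in IFNγR1KO libraries. Its level was 29.1 ± 2.87 CPM in scrambled control and 11.5 ± 1.28 CPM in IFNγR1KO cells (SD, n = 3 each, as for all levels given in this way). This was the largest decrease among the 45 genes (log2 fold change -1.34, SE 0.164, adjusted p = 0.000283), and no IFNγR1KO library came near the lowest scrambled control library. Plk1 (ENSMUSG00000030867.7, chr7:122159439-122169873), which acts in mitotic entry, spindle assembly and cytokinesis, had 996, 1330 and 1435 counts in scrambled control and 361, 371 and 464 in IFNγR1KO libraries. The levels were 126 ± 16.1 CPM in scrambled control and 55.6 ± 8.36 CPM in IFNγR1KO cells (log2 fold change -1.18, SE 0.155, adjusted p = 0.000419). The lowest scrambled control library was replicate 1, and the groups did not overlap. For Cdk1 (ENSMUSG00000019942.13, chr10:69335146-69352938), the kinase that drives entry into mitosis, there were 2888, 3337 and 2491 counts in scrambled control and 1098, 1109 and 861 in IFNγR1KO libraries, or 295 ± 48.3 against 142 ± 18.7 CPM (log2 fold change -1.05, SE 0.163, adjusted p = 0.00127). Wee1 (ENSMUSG00000031016.9, chr7:110122046-110143286), which phosphorylates and restrains Cdk1, fell as well, with 264, 359 and 420 counts in scrambled control and 92, 148 and 122 in IFNγR1KO libraries, or 35.0 ± 6.0 against 16.8 ± 3.51 CPM (log2 fold change -1.06, SE 0.190, adjusted p = 0.00285). Neither gene's groups overlapped, and scrambled control replicate 1 was again the lowest of its group for Wee1. Bub1, a checkpoint kinase of the kinetochore, had 1133, 1116 and 1269 counts in scrambled control and 443, 550 and 510 in IFNγR1KO libraries (log2 fold change -0.77, SE 0.132, adjusted p = 0.00226). Its partner Bub1b, the BubR1 protein of the mitotic checkpoint complex, was at 118 ± 21.1 against 58.9 ± 13.4 CPM (log2 fold change -0.999, SE 0.184, adjusted p = 0.00342). Aurkb, the kinase of the chromosomal passenger complex, fell with them, at 167 ± 9.93 against 102 ± 0.538 CPM (log2 fold change -0.72, adjusted p = 0.00265). Plk4, which acts in centriole duplication, and Aurka, which acts at centrosomes and spindle poles, fell by less, with log2 fold changes of -0.53 and -0.51 and adjusted p = 0.0190 and 0.0236. The call of Plk4 was lost without scrambled control replicate 1 or IFNγR1KO replicate 10 or 11, with adjusted p = 0.0647, 0.0749 and 0.0664. That of Aurka was lost without scrambled control replicate 1 or 2 or IFNγR1KO replicate 11, with adjusted p = 0.0606, 0.0831 and 0.12. The other 2 kinases did not pass the threshold. Nek2, a centrosome kinase, had a log2 fold change of -0.50 (adjusted p = 0.0598), which became 0.0374 without scrambled control replicate 1 and 0.00952 without IFNγR1KO replicate 12. Pkmyt1, the membrane-bound kinase that inhibits Cdk1, had 419, 424 and 375 counts in scrambled control and 293, 274 and 248 in IFNγR1KO libraries, or 41.3 ± 4.69 against 37.9 ± 3.44 CPM. Its groups overlapped, with a log2 fold change of -0.12 whose 95% confidence interval ran from -0.44 to 0.19 (adjusted p = 0.629).

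Among the 6 cyclins and Cdc25 phosphatases, the 4 cyclins fell and neither phosphatase was called, where 7.62% of all tested genes were called lower. The median log2 fold change of the 6 was -0.67. Their groups did not overlap, with the IFNγR1KO libraries lower, as held for 16.6% of all tested genes. Ccnf, the cyclin F subunit of an SCF ubiquitin ligase, fell the most, with 608, 779 and 795 counts in scrambled control and 251, 275 and 294 in IFNγR1KO libraries, or 73.4 ± 6.45 against 38.1 ± 2.92 CPM (log2 fold change -0.95, SE 0.137, adjusted p = 0.000804). Ccna2, cyclin A2 of S phase and G2, had 1953, 2387 and 2513 counts in scrambled control and 828, 930 and 988 in IFNγR1KO libraries, or 231 ± 16.5 against 128 ± 10.7 CPM (log2 fold change -0.86, SE 0.136, adjusted p = 0.00140). For the cyclin B genes, whose products activate Cdk1, Ccnb1 had 2310, 2419 and 2399 counts in scrambled control and 1057, 1062 and 934 in IFNγR1KO libraries (log2 fold change -0.77, SE 0.131, adjusted p = 0.00220). Ccnb2 had 1421, 1566 and 1362 counts in scrambled control and 719, 745 and 658 in IFNγR1KO libraries (log2 fold change -0.58, SE 0.133, adjusted p = 0.0118). The IFNγR1KO libraries were close to one another and well below the controls for both. Leaving out scrambled control replicate 2 or IFNγR1KO replicate 11 ended the call of Ccnb2, with adjusted p = 0.0552 and 0.0687, and ended none of the calls of Ccnf, Ccna2 and Ccnb1. The phosphatases that activate Cdk1 were lower by estimate only. Cdc25b had 783, 859 and 919 counts in scrambled control and 466, 483 and 520 in IFNγR1KO libraries, or 86.4 ± 2.08 against 68.2 ± 4.22 CPM, and its log2 fold change of -0.34 had an interval from -0.61 to -0.07 (adjusted p = 0.0882). Cdc25c was at 33.9 ± 1.96 against 25.2 ± 3.0 CPM (log2 fold change -0.43, adjusted p = 0.0707).

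Of the 6 genes of the checkpoint, the anaphase-promoting complex and sister separation, 2 fell and 4 were not called. Of all tested genes, 7.62% were called lower. The median log2 fold change of the 6 was -0.54. Ube2c, the ubiquitin-conjugating enzyme of the anaphase-promoting complex, had 1345, 1807 and 1782 counts in scrambled control and 654, 767 and 832 in IFNγR1KO libraries, or 166 ± 17.7 against 105 ± 12.0 CPM (log2 fold change -0.67, SE 0.144, adjusted p = 0.00859). Bub3, which carries Bub1 and Bub1b to kinetochores, had 2398, 3203 and 2942 counts in scrambled control and 1349, 1383 and 1338 in IFNγR1KO libraries, or 288 ± 29.3 against 189 ± 2.30 CPM (log2 fold change -0.61, SE 0.136, adjusted p = 0.0104). The groups were apart for both, but both calls depended on single libraries. Ube2c lost it without scrambled control replicate 2 or IFNγR1KO replicate 10 or 11 (adjusted p = 0.051, 0.0558 and 0.0591) and Bub3 without scrambled control replicate 2 or IFNγR1KO replicate 11 (adjusted p = 0.0523 and 0.073). Mad2l1, the checkpoint protein that sequesters Cdc20, varied widely within both groups at 256 ± 66.4 against 163 ± 41.4 CPM. Its log2 fold change was -0.65 (adjusted p = 0.0606, and 0.0101 without scrambled control replicate 3). Espl1, the separase protease that cleaves cohesin, was at 78.0 ± 6.86 against 56.4 ± 9.19 CPM (log2 fold change -0.47, adjusted p = 0.0525, and 0.00892 without IFNγR1KO replicate 12). Cdc20, the activator that the checkpoint holds back, was at 158 ± 11.5 against 131 ± 5.78 CPM, with a log2 fold change of -0.27 and an interval from -0.55 to 0.01 (adjusted p = 0.191). The smallest difference was that of Pttg1, securin, the inhibitor of separase, with 147, 226 and 158 counts in scrambled control and 137, 89 and 108 in IFNγR1KO libraries. The groups overlapped, and its log2 fold change of -0.20 had an interval from -0.67 to 0.26 (adjusted p = 0.586).

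Of the 5 kinetochore genes, Nuf2 and Cenpa fell and 3 were not called, though all 5 had lower estimates. Over all tested genes, 7.62% were called lower, 50.2% had a lower estimate and 16.6% had every IFNγR1KO library below every scrambled control library. The median log2 fold change of the 5 kinetochore genes was -0.57, and the groups overlapped for 3 of the 5. Nuf2 had 1401, 1279 and 1115 counts in scrambled control and 600, 572 and 428 in IFNγR1KO libraries, or 129 ± 22.2 against 74.3 ± 12.8 CPM (log2 fold change -0.80, SE 0.169, adjusted p = 0.00791). Ndc80, its partner in the complex that binds microtubules, had 632, 632 and 635 counts in scrambled control and 477, 498 and 343 in IFNγR1KO libraries, or 64.3 ± 3.82 against 61.1 ± 11.2 CPM. The 3 scrambled control libraries were nearly identical for Ndc80 in counts, the groups overlapped in CPM, and the log2 fold change of -0.07 had an interval from -0.40 to 0.26 (adjusted p = 0.810). Without IFNγR1KO replicate 12 its estimate turned to 0.0701. Cenpa, the histone H3 variant that marks centromeres, had 2485, 2525 and 1909 counts in scrambled control and 1221, 1274 and 848 in IFNγR1KO libraries, or 235 ± 44.9 against 155 ± 31.1 CPM (log2 fold change -0.60, SE 0.185, adjusted p = 0.0457). This call was lost when any library other than scrambled control replicate 3 was left out, with adjusted p = 0.14, 0.159, 0.0687, 0.101 and 0.0662. The large kinetochore proteins Cenpe, a kinesin, and Cenpf had log2 fold changes of -0.53 and -0.57 (adjusted p = 0.0874 and 0.0724). Without IFNγR1KO replicate 12 both passed the threshold, with adjusted p = 0.00507 and 0.00166.

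All 3 genes of the chromosomal passenger complex listed besides Aurkb fell, where 7.62% of all tested genes were called lower. The 3 had a median log2 fold change of -0.87, with a summed level in IFNγR1KO cells at 0.567 of that in scrambled control. Incenp, the scaffold that binds and activates Aurora B, had 1380, 1720 and 1868 counts in scrambled control and 597, 608 and 742 in IFNγR1KO libraries, or 167 ± 15.7 against 90.5 ± 12.0 CPM (log2 fold change -0.89, SE 0.145, adjusted p = 0.00173). Cdca8, the borealin subunit, had 785, 990 and 1002 counts in scrambled control and 327, 345 and 427 in IFNγR1KO libraries, or 93.5 ± 7.23 against 51.1 ± 7.76 CPM (log2 fold change -0.87, SE 0.146, adjusted p = 0.00195). Birc5, survivin, which brings the complex to centromeres, had 1773, 2425 and 1800 counts in scrambled control and 906, 992 and 711 in IFNγR1KO libraries, or 203 ± 34.8 against 121 ± 18.5 CPM (log2 fold change -0.74, SE 0.165, adjusted p = 0.0103). In none of the 3 did an IFNγR1KO library reach the lowest scrambled control library, as held for 16.6% of all tested genes. The call of Birc5 was lost without scrambled control replicate 2 (adjusted p = 0.0612).

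Of the 7 kinesins and spindle proteins, 6 fell, 2 of them by more than 1 on the log2 scale, and the groups did not overlap for any. Over all tested genes, 7.62% were called lower and 1.96% were called with a log2 fold change below -1. Every IFNγR1KO library lay below every scrambled control library in 16.6%. Kif23 (ENSMUSG00000032254.10, chr9:61915905-61946774), the motor of centralspindlin at the midzone of the anaphase spindle, had 961, 1186 and 1333 counts in scrambled control and 335, 377 and 445 in IFNγR1KO libraries, or 117 ± 12.3 against 53.7 ± 7.83 CPM (log2 fold change -1.12, SE 0.149, adjusted p = 0.000476). Kif2c (ENSMUSG00000028678.13, chr4:117159639-117182639), the microtubule depolymerase of centromeres known as MCAK, had 590, 758 and 820 counts in scrambled control and 239, 262 and 279 in IFNγR1KO libraries, or 72.9 ± 7.90 against 36.2 ± 2.71 CPM (log2 fold change -1.01, SE 0.140, adjusted p = 0.000636). Each IFNγR1KO library was below every scrambled control library by a wide margin for both genes. Prc1, which crosslinks antiparallel microtubules of the midzone, had 1243, 1423 and 1635 counts in scrambled control and 570, 587 and 660 in IFNγR1KO libraries, or 145 ± 11.9 against 84.4 ± 7.27 CPM (log2 fold change -0.78, SE 0.135, adjusted p = 0.00238). Kif11, the Eg5 motor that separates the spindle poles, had 1142, 1183 and 1427 counts in scrambled control and 530, 551 and 637 in IFNγR1KO libraries, or 127 ± 10.3 against 79.8 ± 8.42 CPM (log2 fold change -0.66, SE 0.137, adjusted p = 0.00661). Tpx2, an activator of Aurora A, and Kif20a, a motor of cytokinesis, had log2 fold changes of -0.66 and -0.62 (adjusted p = 0.00805 and 0.0130). Without IFNγR1KO replicate 11 the calls of Kif11, Tpx2 and Kif20a were lost (adjusted p = 0.0609, 0.0724 and 0.0902), and that of Kif20a also without scrambled control replicate 2 or IFNγR1KO replicate 10 (adjusted p = 0.0626 and 0.0651). The chromokinesin Kif4, which works with Prc1 at the midzone, had 777, 869 and 1044 counts in scrambled control and 499, 489 and 527 in IFNγR1KO libraries, or 90.6 ± 9.0 against 70.4 ± 3.94 CPM. Its estimate was the smallest of the group and was not called (log2 fold change -0.36, SE 0.133, adjusted p = 0.0860).

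In condensin, which compacts chromosomes, and for topoisomerase IIα, which untangles them, 3 of 5 genes fell and the median log2 fold change was -0.51. Over all tested genes, 7.62% were called lower and 16.6% had every IFNγR1KO library below every scrambled control library. Ncapd2, a regulatory subunit of condensin I, had 2203, 2628 and 3292 counts in scrambled control and 989, 1113 and 1357 in IFNγR1KO libraries, or 273 ± 40.7 against 161 ± 26.6 CPM (log2 fold change -0.76, SE 0.163, adjusted p = 0.00801). Smc2, an ATPase of the condensin core, had 886, 929 and 1191 counts in scrambled control and 473, 524 and 530 in IFNγR1KO libraries (log2 fold change -0.51, SE 0.136, adjusted p = 0.0241). Top2a had 3016, 3131 and 4325 counts in scrambled control and 1612, 1660 and 1973 in IFNγR1KO libraries (log2 fold change -0.53, SE 0.159, adjusted p = 0.0398). The groups did not overlap for any of these, although scrambled control replicate 3 stood above its group in all 3. The call of Ncapd2 was lost without IFNγR1KO replicate 11 (adjusted p = 0.0617), and that of Smc2 without scrambled control replicate 3 or IFNγR1KO replicate 10 or 11 (adjusted p = 0.079, 0.112 and 0.114). For Top2a the call was lost without any library except IFNγR1KO replicate 12, with adjusted p from 0.0572 to 0.197. Smc4, the other core ATPase, had 2256, 2089 and 2648 counts in scrambled control and 1327, 1434 and 1383 in IFNγR1KO libraries, or 236 ± 25.2 against 192 ± 3.36 CPM, with a log2 fold change of -0.30 and an interval from -0.59 to -0.00163 (adjusted p = 0.170). Ncapg, a condensin I subunit, was at 93.5 ± 5.57 against 71.8 ± 5.37 CPM (log2 fold change -0.38, adjusted p = 0.0667).

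Foxm1, a transcription factor of the G2 and mitosis genes, had 1180, 1353 and 1770 counts in scrambled control and 568, 698 and 850 in IFNγR1KO libraries, or 145 ± 23.1 against 98.2 ± 19.7 CPM (log2 fold change -0.56, SE 0.171, adjusted p = 0.0443). Mki67, the Ki-67 protein of dividing cells, had 1919, 1687 and 2829 counts in scrambled control and 762, 824 and 1222 in IFNγR1KO libraries, or 217 ± 53.2 against 131 ± 35.7 CPM (log2 fold change -0.73, SE 0.211, adjusted p = 0.0346). The groups overlapped for Mki67, since IFNγR1KO replicate 12 lay above the lowest scrambled control library in CPM, and did not overlap for Foxm1. Both calls were near the threshold. Foxm1 lost it without scrambled control replicate 2 or 3 or IFNγR1KO replicate 10 or 11 (adjusted p = 0.098, 0.116, 0.194 and 0.179), and Mki67 without scrambled control replicate 1 or 3 or IFNγR1KO replicate 10 or 11 (adjusted p = 0.0625, 0.0761, 0.134 and 0.172).

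**Figure D4:**
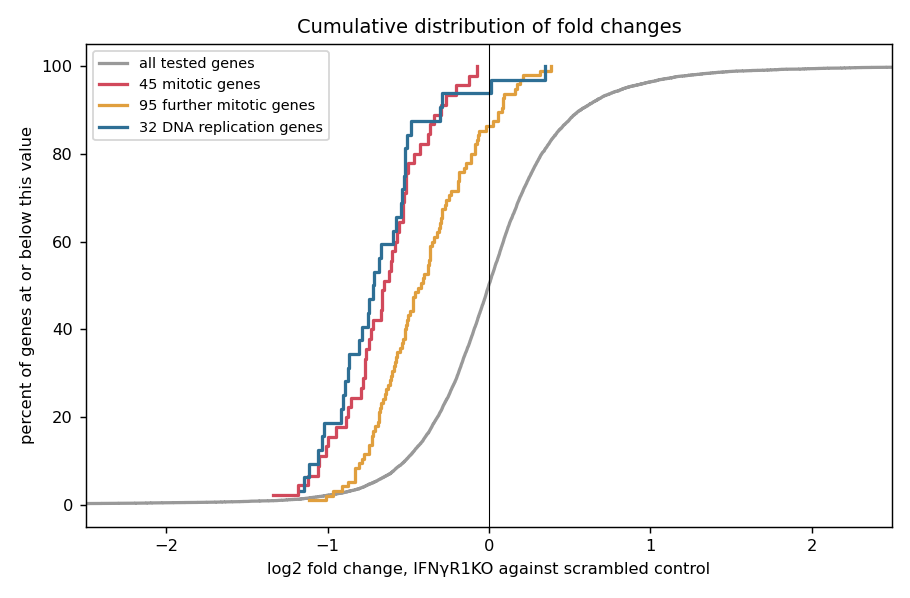
Cumulative percent of genes (y axis) at or below each log2 fold change, IFNγR1KO against scrambled control (x axis, outermost values not drawn), for all tested genes, the 45 mitotic genes, 95 further mitotic genes and 32 DNA replication genes. The curve of the 45 genes ends below 0 and has its median at -0.65, while that of all 13642 tested genes is centred on -0.00147.

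For genes whose proteins work as partners, the ratio of raw counts of 15 pairs was taken within each library, so that the library total cancels. The shift with transcript length and any reads of overlapping genes do not cancel, and their part in the ratios was not tested. These pairs were chosen with the fold changes known, and an exact permutation test allows no p below 0.1, so none could pass a threshold of 0.05. The 5 pairs whose groups did not overlap had this smallest exact p, or 0.3 after adjustment over the 15. For 10 pairs the groups overlapped, for 3 the IFNγR1KO ratios were all lower and for 2 all higher. For single genes, every IFNγR1KO library lay below every scrambled control library in 16.6% of all tested genes and above in 16%. The share for pairs of genes at large was not computed, so these counts are no result about partners. Nuf2 to Ndc80 was 2.22, 2.02 and 1.76 in scrambled control and 1.26, 1.15 and 1.25 in IFNγR1KO libraries. Wee1 to Pkmyt1, the kinases that inhibit Cdk1, was 0.630, 0.847 and 1.12 against 0.314, 0.540 and 0.492. Smc2 to Smc4 was 0.393, 0.445 and 0.450 against 0.356, 0.365 and 0.383. In each of these the IFNγR1KO ratios were below the scrambled control ratios. Kif4 to Prc1 was higher in IFNγR1KO libraries, with 0.625, 0.611 and 0.639 against 0.875, 0.833 and 0.798. So was Ncapg to Ncapd2, with 0.372, 0.351 and 0.313 against 0.473, 0.512 and 0.376. By contrast, Cdca8 to Incenp was 0.569, 0.576 and 0.536 against 0.548, 0.567 and 0.575, with mean ratios of 0.560 ± 0.0209 and 0.564 ± 0.0143 (SD, n = 3 each).

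**Figure D5:**
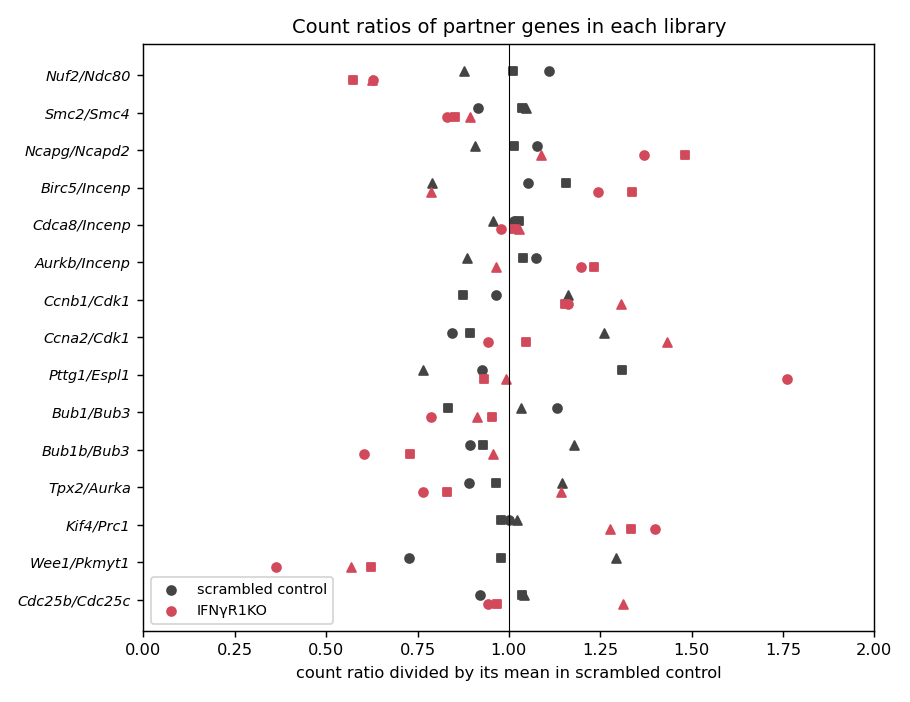
Ratio of raw counts of 15 pairs of partner genes in each library, divided by the mean ratio of the scrambled control libraries (x axis), with 1 pair per row (y axis) and the groups in separate colours (circles, squares and triangles are replicates 1, 2 and 3 or 10, 11 and 12). The groups are apart for 5 of the 15 pairs, and the share for pairs of genes at large was not computed. The points of Cdca8 to Incenp lie close to 1 in both groups.

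Further genes of the pathway were taken from a list of 95 tested genes that were not among the 45. Of these, 38 fell and 0 rose (40%, against 7.62% of all tested genes called lower), and their median log2 fold change was -0.42. Among outer and inner kinetochore genes, 15 of 34 fell, and those with the smallest adjusted p were the spindly gene Spdl1 (log2 fold change -0.87), Zwint (-0.73), Nsl1 (-0.97) and Ska3 (-0.83). Among kinesins, spindle and cytokinesis genes, 14 of 21 fell, and those with the smallest adjusted p were the chromokinesin Kif22 (-1.11) and the actin-binding anillin gene Anln (-1.01). Of 13 condensin and cohesin genes 4 fell, Cdca5 (-0.74), Ncaph (-0.79), Ncapd3 (-0.72) and Ncapg2 (-0.66). Of 10 genes of mitotic entry and the MuvB or DREAM complexes 3 fell, the B-Myb gene Mybl2 (-0.72), Cks2 (-0.83) and Arpp19 (-0.61). Of 17 genes of the anaphase-promoting complex 2 fell, its inhibitor Fbxo5 (-0.58) and its ubiquitin-conjugating enzyme Ube2s (-0.47), a share of 11.8% that is near the 7.62% of all tested genes. The median log2 fold change of these 17 was -0.11, and 6 of them had positive estimates.

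The strand setting of the counting is not given in the sources used here, so reads of overlapping genes on the other strand could be counted with some members. The share of exonic bases overlapped was 29.3% for Kif20a (by Cdc23), 22.8% for Ube2c (by Tnnc2), 15.1% for Kif4 (by Pdzd11), 13.4% for Ncapg (by Lcorl), 12.5% for Ccna2 (by Exosc9), 11.1% for Prc1 (by Rccd1), 8.76% for Pkmyt1 (by Paqr4) and 7.09% for Plk1 (by Gm44985). For Cdc25c it was 12.7% and for Nek2 6.60%. It was at most 4.48% for the remaining members.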

How the data were processed

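RNA of 3 scrambled control and 3 IFNγR1KO cultures of B16-BL6 cells was measured by paired-end, poly(A)-selected RNA sequencing. The authors aligned reads to GRCm38 with STAR 2.7.5a and deposited raw counts, made per gene with HTSeq 0.11.2, with no normalization (versions per the submitters' processing notes). The annotation release and the strand setting are not given in the sources used here. GENCODE M21 held 55154 of the 55335 identifiers. In R 4.3.3, edgeR 4.0.16 filtered low counts (minimum count 10, minimum total 15), applied TMM factors and ran quasi-likelihood tests, adjusted by Benjamini and Hochberg's method over 13642 genes; the SE is the fold change divided by the root of its F statistic. Fitted log2 fold changes compare IFNγR1KO with scrambled control. Thresholds followed the study, whose own test was DESeq2 1.34.0. Reads in no gene were 46.9 to 47.7% of each table's total, and these rows were left out. Depth was 6698956 to 10579788 counts per library.

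The members and lists were chosen with earlier results of these data known. All 45 members are named; counts in every library were given for DEGs, for up to 4 called members of a role with the smallest adjusted p, and for the member of each role nearest to 0. Of other lists only some genes are named. A marker gene and a sequence that these rules select are not reported here. Alternatives were DESeq2 1.42.0, other scaling factors, no filter, thinning, a stricter threshold and leaving out each library. The fit was tested on simulated data.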

Additional observations from a re-analysis of the deposited data

How the results depend on the processing

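No paired analysis was possible because the replicate numbers in the labels, 1 to 3 and 10 to 12, are not shared between the groups. Of 585 values of single members under 13 alternatives, 583 were negative, 514 kept their direction and side of the threshold, 49 lost the call and 20 gained it. The 2 that reversed were those of Ndc80, which ranged from -0.152 to 0.0701 with each library left out (0.0701 without IFNγR1KO replicate 12) and was 0.0392 without both scrambled control replicate 3 and IFNγR1KO replicate 12, a comparison chosen after seeing the data. The cause was not tested. The 16 members called in every alternative were Plk1, Ttk, Bub1, Bub1b, Aurkb, Cdk1, Wee1, Ccna2, Ccnb1, Ccnf, Nuf2, Incenp, Cdca8, Kif23, Kif2c and Prc1. The count of members that fell (with the share of all genes called lower in the same setting) was 34 with DESeq2 (7.17%), 31 with DESeq2's size factors (7.65%), 29 with upper-quartile factors (6.81%), 27 with library totals (5.53%), 36 with no filter (6.15%) and 29 after thinning (7.17%), and 0 rose. At an adjusted p under 0.01 it was 20 (3.06%), with 20 for the further mitotic genes and 14 for DNA replication genes. Leaving out each library gave 17 (without IFNγR1KO replicate 11) to 34 members (without replicate 12), where 3.25% and 10.3% of tested genes were called lower, 19 to 47 further mitotic genes and medians over the 45 members of -0.71 to -0.60. The count of DEGs among the members, all lower, was 7 with DESeq2, where Bub1b was at -1.01. It was 7 with no filter, 5 with upper-quartile factors, library totals or thinning, and 4 to 9 with each library left out. The share of DEGs among all genes was not computed in these settings.

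The median of the further mitotic genes was -0.43 with DESeq2, -0.38 with upper-quartile factors, -0.37 with library totals, -0.45 with no filter, -0.43 without both libraries named above and -0.47 to -0.39 with each library left out. The median of the cyclins and phosphatases was -0.64 with upper-quartile factors, -0.62 with library totals and -0.72 to -0.63 with each library left out, and that of the kinetochore genes -0.67 to -0.40. Without IFNγR1KO replicate 12, alone or with scrambled control replicate 3, 1 further mitotic gene (Cdc16) and 1 replication gene (Orc2) were called higher; with each library left out both counts ran from 0 to 1. Ttk, Pttg1 and Wee1 had the fewest counts in a library, and depth as a limit on their precision was not tested.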

Other observations

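Genes of DNA replication, which act in S phase before mitosis, were lower as well. Of 32 tested, 22 (68.8%) fell and 0 rose by edgeR's quasi-likelihood test (adjusted p under 0.05). Of all tested genes, 7.62% were called lower and 7.73% higher. The 32 genes had a median log2 fold change of -0.72. Fen1, the flap endonuclease of lagging-strand synthesis, had a log2 fold change of -1.16 (adjusted p = 0.000508), and Rpa2, a subunit of the single-strand binding protein, one of -1.12 (adjusted p = 0.000578). Mcm10 and Mcm5, which act in the opening of replication origins, had -0.92 and -0.89 (adjusted p = 0.000915 and 0.00123).

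Of 9 genes of the passage from G1 to S phase, 6 fell and 0 rose (66.7%, against 7.62% of all tested genes called lower). The largest decreases were those of the cyclin E2 gene Ccne2 (-1.14), the transcription factor gene E2f2 (-1.14) and the phosphatase gene Cdc25a (-1.11), with adjusted p = 0.00288, 0.00115 and 0.000744. The kinase genes Cdk2 and Cdk4, which are made throughout the cycle, had log2 fold changes of 0.04 and 0.16 (adjusted p = 0.906 and 0.571), with overlapping groups. Cdk6, also a kinase gene and not called, had a log2 fold change of -0.34 (adjusted p = 0.452), with overlapping groups as well.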
